A study of Homo sapiens with 10 samples.

Results

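The loci described here are 9 genes of the human genome that carry an expandable short repeat or lie beside one: FMR1, AFF2, DMPK, SIX5, HTT, ATXN1, ATXN2, ATXN7 and C9orf72. They were taken by name from the 20033 protein-coding genes of chromosomes 1 to 22, X and Y. No measured value entered the rule, but earlier results of these data were known when the genes were chosen. Each gene body was extended by 20 kb on both sides, and DMPK and SIX5, which are neighbours on chromosome 19, were joined, which left 8 windows that span 1877 kb in all. ChIP-seq for CTCF was done in HEK-293T, a human embryonic kidney line, after lentiviral transduction with a non-targeting shRNA (CT), with shRNA against CGGBP1 (KD) or with a construct that overexpresses CGGBP1 (OE). For CT and KD there are also H3K4me3, H3K9me3 and H3K27me3 libraries, and 1 input library was made without immunoprecipitation. Per the study's methods, puromycin was used to select the cells that received shRNA, so CT is the matched control of KD and differs from OE also in its vector. Each condition and target has 1 library, so no difference between CT, KD and OE has a replicate check and no p-values between conditions are given. The level of CGGBP1 in these cells cannot be read from peak lists.

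An expandable repeat is a run of a short unit that can grow between generations, and long alleles cause disease: fragile X syndrome for the CGG run of FMR1, myotonic dystrophy for the CTG run of DMPK, Huntington disease for the CAG run of HTT, spinocerebellar ataxias for ATXN1, ATXN2 and ATXN7, and amyotrophic lateral sclerosis with frontotemporal dementia for the GGGGCC run of C9orf72. CTCF is a zinc finger protein that binds a known motif, blocks contact between enhancers and promoters and anchors chromatin loops, and CTCF sites have been described beside several of these repeats. CGGBP1 binds unmethylated CGG repeats. The question that the windows address is where CTCF peaks lie relative to the repeats, and whether they are listed in all 3 CGGBP1 conditions.

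The repeats were located in hg38, so their lengths are those of the reference and not of the HEK-293T alleles. The CGG run of FMR1 (chrX:147912051-147912110, 20 units, 1 of them interrupted) lies in the 5′ UTR in exon 1, 162 bp from the start site, as measured to the middle of the run. The GCC run of AFF2, whose expansion causes a fragile site and intellectual disability, also has 20 units, 2 of them interrupted, in the 5′ UTR in exon 1 (chrX:148500632-148500691). The CTG run of DMPK, a muscle protein kinase, has 20 uninterrupted units in the 3′ UTR in exon 15 (chr19:45770205-45770264), and SIX5, a homeobox gene, starts downstream of it. The GGGGCC run of C9orf72 has 3 units in the reference and is centred 57 bp before the start of the transcript used here, within the gene body. It is shown on the minus strand with 6 bases on each side and the units in capitals.

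C9orf72, chr9:27573523-27573552: gcgctaGGGGCCGGGGCCGGGGCCggggcg

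The 4 CAG runs lie in coding exons and encode polyglutamine. They are shown because their lengths and interruptions set the distances given further on. Each is written along its gene, and capitals mark a base that breaks the run.

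HTT, exon 1, chr4:3074877-3074939, 21 units: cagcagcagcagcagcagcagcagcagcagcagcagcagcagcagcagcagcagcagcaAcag
ATXN1, exon 7, chr6:16327636-16327722, 29 units: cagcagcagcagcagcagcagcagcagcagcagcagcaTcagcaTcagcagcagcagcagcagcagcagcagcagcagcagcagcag
ATXN2, exon 1, chr12:111598951-111599019, 23 units: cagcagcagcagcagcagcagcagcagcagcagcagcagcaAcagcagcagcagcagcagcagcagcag
ATXN7, exon 3, chr3:63912686-63912715, 10 units: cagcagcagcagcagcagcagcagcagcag

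CTCF motif sites were scored with a matrix of 14 columns learned from peaks that the 3 repeat-masked lists share, whose most frequent bases are CCACCAGGGGGCAC. A site was counted from a score of 8.30 bits, which corresponds to a p of 0.0001 per position under the background bases of the matrix, and called strict from 13.22 bits, a p of 1e-05. The highest score the matrix can give is 23.76 bits. A CTCF site is here a stretch of overlapping peaks of the 6 CTCF lists (CT, KD and OE, each called on unmasked and on repeat-masked reads), numbered along the gene. For DMPK, ATXN1, ATXN7 and HTT, the best motif of the motif-bearing site nearest the run is shown first, and for ATXN1 and HTT also that of the next nearest, with 8 bases on each side and the motif in capitals. The sites nearest the runs of FMR1, AFF2, ATXN2 and C9orf72 hold no motif.

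DMPK and SIX5 site 3, chr19:45770324-45770353, plus strand, 19.92 bits, in CT and KD: ctccccggCCGCTAGGGGGCGGgcccggat
ATXN1 site 19, chr6:16331491-16331520, minus strand, 22.76 bits, in CT, KD and OE: caggagggCCAGCAGGGGGCGCatggactg
ATXN1 site 18, chr6:16332277-16332306, plus strand, 23.02 bits, in KD and OE: tcaatgaaCCACCAGAGGGCGCcccaggat
ATXN7 site 2, chr3:63908232-63908261, minus strand, 15.00 bits, in KD and OE: tcagtattCCAGTAGAGGGAGAacagtgga
HTT site 2, chr4:3047555-3047584, plus strand, 17.78 bits, in KD and OE: agacagggCCACTAGAGGGCTCcctggtct
HTT site 3, chr4:3106769-3106798, plus strand, 21.37 bits, in KD and OE: agactctgCCACTAGAGGGCAGggctgcac

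The other 8 sites found in all 3 conditions on unmasked reads are shown for comparison. On repeat-masked reads, ATXN7 site 4 was absent from CT and C9orf72 site 3 from every list.

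DMPK and SIX5 site 2, chr19:45779345-45779374, minus strand, 11.24 bits: ccgggtgcCCTGCAGGTGTCGTgcttccgt
ATXN1 site 1, chr6:16771133-16771162, minus strand, 18.74 bits: tcgggcgcCCAGCAGAGGGAGCtgaggagg
ATXN1 site 9, chr6:16511253-16511282, plus strand, 18.32 bits: ctcactagCCACTAGAGGGCATtaacatgt
ATXN2 site 3, chr12:111451843-111451872, minus strand, 21.11 bits: ctactttaCCAGTAGGGGGCAGgagacact
ATXN7 site 3, chr3:63961995-63962024, plus strand, 13.23 bits: acatatgaCCAGAAGAGGGAGTttttatca
ATXN7 site 4, chr3:63993782-63993811, minus strand, 18.28 bits: tctcatgaCCACCAGGTGGCTCaggaagcc
C9orf72 site 2, chr9:27548343-27548372, minus strand, 15.16 bits: ttgatttaACAGCAGAGGGCGAtcttaaca
C9orf72 site 3, chr9:27529828-27529857, minus strand, 12.40 bits: gcaggcggCCGCCAGGGGTCCCcgctcggc

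On unmasked reads the CT list had 28 CTCF peaks within the 8 windows, the KD list 31 and the OE list 31, and on repeat-masked reads they had 19, 20 and 17. Every window held at least 1 unmasked peak in each condition, as did the windows of 73.9% of protein-coding genes in CT, 81.1% in KD and 78.5% in OE. Pooled over the windows, the density was 1.49 peaks per 100 kb in CT, 1.65 in KD and 1.65 in OE, beside 1.57, 1.94 and 1.87 over the windows of all protein-coding genes. The peaks merged into 60 CTCF sites: 21 in the ATXN1 window, 16 in AFF2, 6 in ATXN7, 5 in HTT and 3 in each of FMR1, DMPK and SIX5, ATXN2 and C9orf72. The lists do not say how many reads made up a peak.

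**Figure D1:**
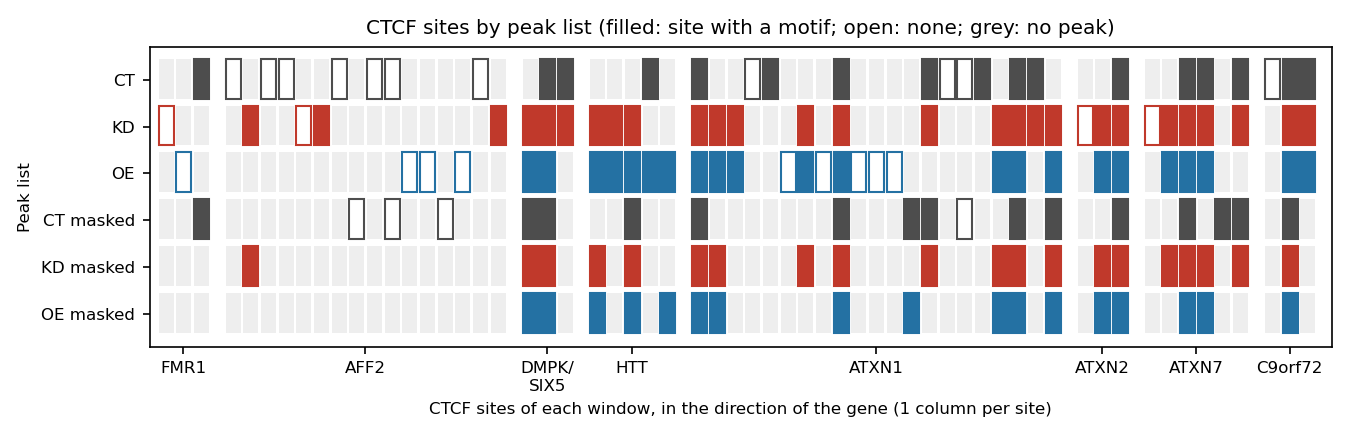
Presence of the 60 CTCF sites (columns, grouped by window and ordered along the gene) in the 6 CTCF peak lists (rows); filled boxes are sites with a motif, open boxes sites without one, and pale grey boxes mean no peak. Each column of FMR1 and AFF2 has a peak in 1 unmasked row at most, whereas each column of DMPK and SIX5 has one in 2 or 3.

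At FMR1, no CTCF site was listed in more than 1 condition. Over the genome, 53.9% of sites were listed in 1 condition on unmasked reads. In KD a peak lay 629 bp after the CGG run, in intron 1 (chrX:147912740-147912998), and inside an H3K4me3 peak in both CT and KD. In OE the nearest peak lay 2922 bp after the run, also in intron 1 (chrX:147915033-147915369), outside H3K4me3 peaks. In CT neither was listed, and the nearest peak (chrX:147883609-147883905) lay 28145 bp before the run, outside the window. The only CT peak within the window lay 39576 bp after the run, beyond the end of the gene (chrX:147951687-147951933), and was the only one of the 3 also found on repeat-masked reads. The KD and OE peaks beside the run hold no motif, and their GC contents were 45.9% and 27.6%. None of the 3 sites holds a strict motif.

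AFF2, which encodes a nuclear factor of the AF4 family, has the longest window (540 kb), and 7 peaks were listed there for CT, 4 for KD and 3 for OE. None of its 16 sites was shared between conditions, whether unmasked or repeat-masked, and 2 were found only on repeat-masked reads. Of all sites over the genome, 53.9% were in 1 condition on unmasked reads and 11.1% were found only on repeat-masked reads. The site nearest the GCC run lay 6764 bp before it and was found in CT (chrX:148493444-148493867). The nearest KD peak lay 29776 bp after the run in intron 1, and the nearest OE peak lay 257062 bp before it, outside the window. A motif was present in 3 of the 16 sites, all of them KD peaks, with scores of 9.23, 13.17 and 11.18 bits, below the strict threshold. Repeated bases, meaning bases within any 24-mer found 10 or more times across hg38, filled 100% of CT sites 7 and 15 and between 0 and 20.1% of the others.

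The DMPK and SIX5 window, with 3 CTCF sites, was the only one in which every site was listed in at least 2 conditions. In HTT 4 of 5 were, in ATXN7 4 of 6, and in ATXN2 and C9orf72 2 of 3 each. In ATXN1 10 of 21 were, and in FMR1 and AFF2 0. The share over the genome was 35.1%. The CTG run itself was reached by a peak: in CT, site 3 began within it (chr19:45770245-45770453) and covered 20 of its 60 bases, and in KD the peak (chr19:45770284-45770674) began 19 bp from it. No OE peak was listed there, and the nearest OE peak lay 8995 bp away. Site 3 contains the strict motif printed first, 67 bp from the run on the side of the DMPK start site, in the 3′ UTR. It lay 992 bp before the SIX5 start site in CT and 1031 bp before it in KD. It was on no repeat-masked list, although repeated bases filled only 5.58% of it.

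Site 2 of the same window, in intron 3 of DMPK, (chr19:45779210-45779564) was in all 6 lists and lay within an H3K4me3 peak in CT and KD. Its motif scores only 11.24 bits. Site 1, in intron 5 of RSPH6A, was listed in KD and OE and not in CT on unmasked reads. On repeat-masked reads it was listed in all 3, the CT peak at chr19:45799024-45799284, so whether CT was listed at this site differed between the reads used for calling.

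HTT encodes huntingtin, and its window had 1 CT peak, 3 KD peaks and 5 OE peaks of CTCF. Sites 1, 2 and 3 were found in KD and OE and not in CT on unmasked reads. Site 2, 27074 bp before the CAG run in KD and 27192 bp in OE, was on no repeat-masked list, and repeated bases filled 64.8% of it. Site 3, in intron 5 and 31703 bp after the run, was listed in CT on repeat-masked reads (chr4:3106671-3106902). The only unmasked CT peak, at site 4 in intron 24, lay 70477 bp after the run. It overlapped an OE peak (chr4:3145512-3145742), which contains the motif of the site at 15.92 bits, whereas the CT peak (chr4:3145417-3145643) ends before it. Site 5, in intron 40 and 118858 bp after the run, was listed in OE only, unmasked and repeat-masked, and holds a strict motif of 17.50 bits.

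ATXN1, a chromatin-binding protein, has its CAG run far from the start site, 433781 bp into the gene. A CTCF site lay in front of the run in all 6 lists: site 19, in intron 6, was 3684 bp from the run in CT. The KD peak was 3645 bp and the OE peak 3659 bp away. Its motif scores 22.76 bits, close to the highest the matrix can give. Site 18, with the highest-scoring motif of all sites at 23.02 bits, lies 786 bp further from the run on the other strand and was listed in KD and OE, unmasked and repeat-masked, and in neither CT list. Both overlapped H3K4me3 peaks in CT and KD. Site 20 was found after the run, 10682 bp from it in CT and 10627 bp in KD, and not in OE.

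Over the whole ATXN1 window, 3 sites were in all 6 lists (sites 1, 9 and 19), and 5 were found in KD and OE without CT. Genome-wide, these classes held 10.7% and 11.3% of sites. Another 10 were found in 1 condition (5 in CT, 5 in OE and 0 in KD), beside 53.9% of sites over the genome. Of these 10, the 2 with a motif were CT peaks (sites 5 and 17). The CT peak of site 17 lay 28050 bp before the run and holds a strict motif of 14.17 bits. Sites 2 and 3 lay 3087 and 1630 bp before the start site of ATXN1 and were both listed in KD and OE. No unmasked CT peak lay nearer to that start site than site 1, at 9409 bp. Site 21, in GMPR, was found in KD and OE on unmasked reads and in all 3 conditions on repeat-masked reads.

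ATXN2, an RNA-binding protein, has its CAG run in exon 1, 330 bp from the start site. In KD the nearest CTCF peak lay 23534 bp after the run in intron 1, without a motif. Site 2, in intron 5, was found in KD and OE, 69082 bp and 69200 bp from the run. In CT the nearest peak lay 68129 bp before the run and outside the window (chr12:111667149-111667527), and the only one within the window was site 3, past the end of the transcript used here, which was in all 6 lists.

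ATXN7, a subunit of the SAGA chromatin complex, had CTCF site 2 in intron 2, 4308 bp before the CAG run in KD and 4216 bp in OE. Site 2 holds 2 strict motifs and was listed on repeat-masked reads in KD only. The nearest CT peak was that of site 3, 49202 bp after the run in intron 5, which was in all 6 lists. Site 1, in intron 1 and 38126 bp before the run, was listed in KD only and holds no motif. Site 5, past the end of the gene, was found in CT on repeat-masked reads only. Site 4, in intron 11, was in all unmasked lists and on repeat-masked reads in KD and OE. Site 6, at the start of PSMD6, was counted in CT and KD, but an overlapping OE peak (chr3:64023494-64023761) begins 31 bp beyond the edge of the window, so its absence from OE is set by the 20 kb limit.

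C9orf72, a regulator of membrane traffic and autophagy, had 2 CTCF sites in all 3 conditions and 1 in CT only. The latter, site 1, lay 10583 bp before the GGGGCC run and holds no motif. Site 2, in coding exon 11 at the far end of the gene, was in all 6 lists, and its unmasked peaks lay 25086 bp (CT), 25051 bp (KD) and 25080 bp (OE) from the run. Site 3, at the start of MOB3B, was in all 3 unmasked lists (chr9:27529654-27530081 in CT) and on no repeat-masked list.

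**Figure D2:**
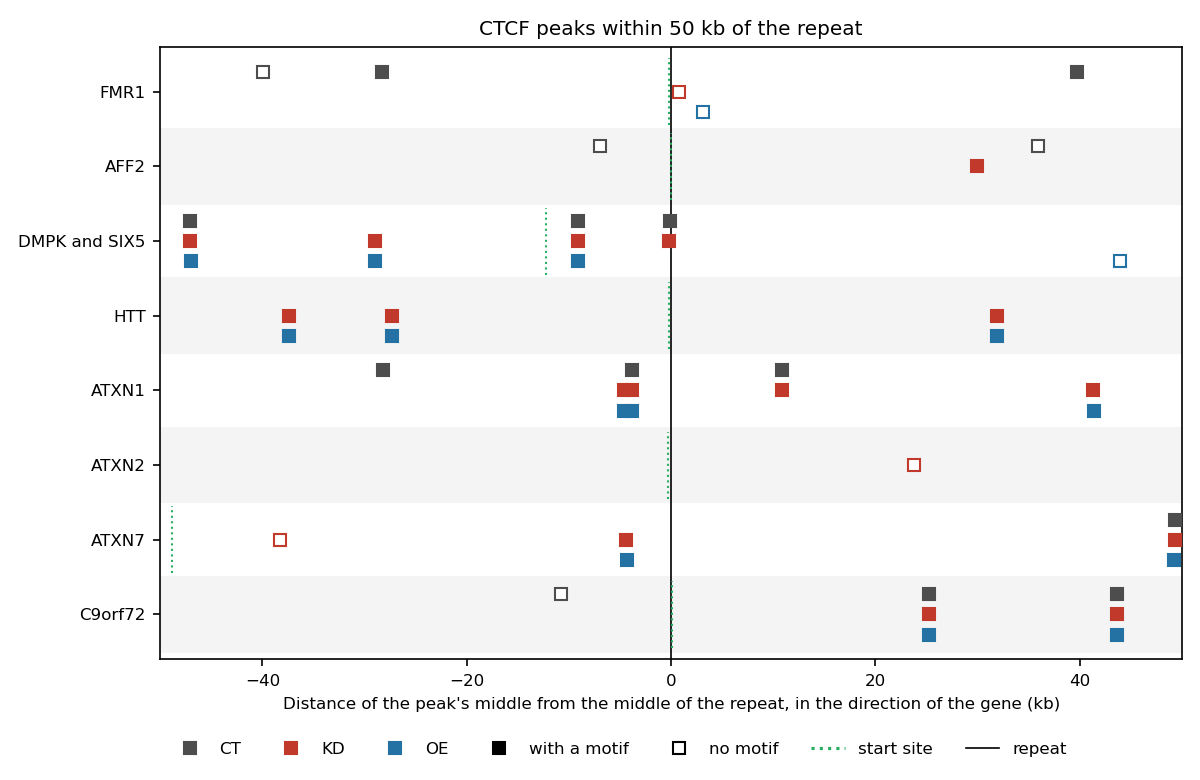
CTCF peaks of the unmasked lists (squares: dark grey CT, red KD, blue OE; filled with a motif, open without), including some outside the windows, against the distance of their middle from the middle of the repeat, in kb along the gene; the dotted line is the start site of the gene, for DMPK and SIX5 that of DMPK. Within 5 kb of the line at 0, squares lie at FMR1 (KD and OE), DMPK and SIX5 (CT and KD), ATXN1 (all 3) and ATXN7 (KD and OE).

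Peaks were then compared between conditions over all 8 windows, counting a peak as shared when at least 1 bp overlapped. The shares below have exact Clopper-Pearson 95% intervals, which cover counting error within these lists only. Of the 28 CT peaks, 13 were also in KD (46.4%, 27.5 to 66.1) and 15 were not, beside 49.8% without overlap over the whole CT list. Of the same 28, 11 were also in OE (39.3%, 21.5 to 59.4) and 17 were not, beside 53.5% over the list. Of the 31 KD peaks, 18 were absent in CT (58.1%, 39.1 to 75.5), beside 54.8%. Of the 31 OE peaks, 21 were absent in CT (67.7%, 48.6 to 83.3), beside 57.6%. KD and OE shared more with each other than with CT: 10 of 31 KD peaks were absent in OE (32.3%, beside 38.5% over the list) and 11 of 31 OE peaks were absent in KD (35.5%, beside 37.9%). Every one of these whole-list shares lay within the interval of the windows, so the windows stood near the background.

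On repeat-masked reads, 7 of 19 CT peaks had no overlap in KD (36.8%) and 7 of 19 none in OE (36.8%), beside 45.6% and 50.2% over the repeat-masked CT list. Of the repeat-masked KD peaks, 8 of 20 were absent in CT (40.0%, beside 40.6%), and of the OE peaks 6 of 17 (35.3%, beside 37.0%). For OE the share absent in CT was thus 67.7% on unmasked and 35.3% on repeat-masked reads. The unmasked lists were also called at different limits, per the labels at p of 0.0025 in CT and KD and of 0.005 in OE, and the part of this in the differences was not tested.

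A motif was present in 16 of the 28 CT peaks (57.1%, 37.2 to 75.5), 27 of the 31 KD peaks (87.1%, 70.2 to 96.4) and 22 of the 31 OE peaks (71.0%, 52.0 to 85.8). The whole lists had the same order, 47.3% in CT, 67.4% in KD and 57.9% in OE, and only the KD value lay outside the interval of its windows. For strict motifs the window shares were 35.7% in CT, 58.1% in KD and 58.1% in OE, beside 35.7%, 52.5% and 44.8% over the lists. On repeat-masked reads, 15 of 19 CT peaks and all 20 KD and 17 OE peaks held a motif. Over the whole repeat-masked lists, 58.4% of CT, 89.1% of KD and 86.6% of OE peaks did. AFF2, with 7 of the 28 CT peaks and no motif in any of them, weighed on the CT share, which was 76.2% without that window.

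**Figure D3:**
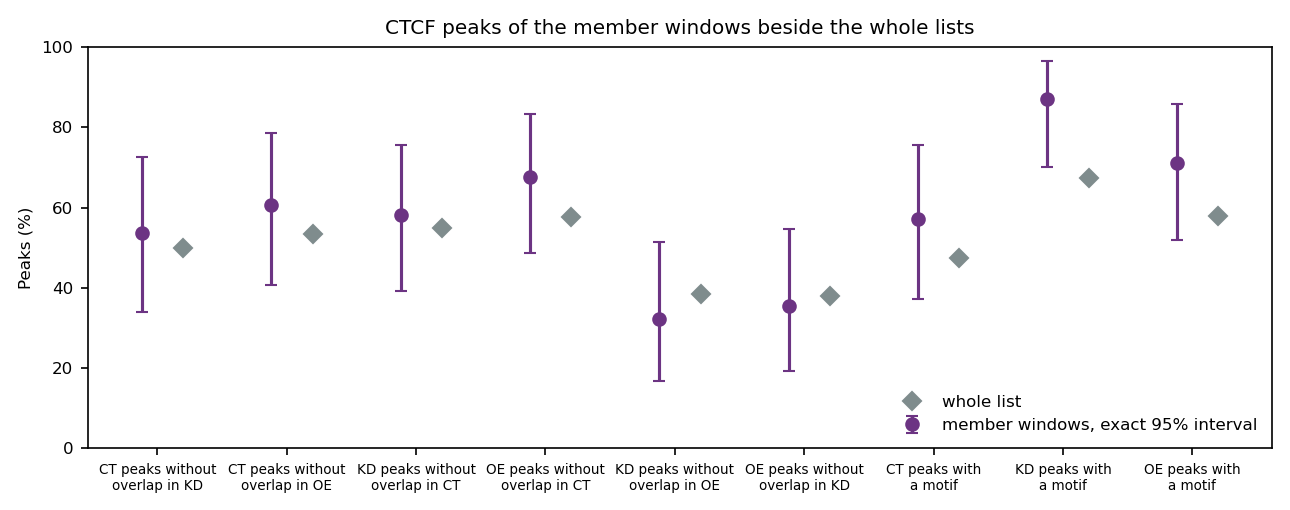
Percent of unmasked CTCF peaks without overlap in another condition (left) and with a motif (right), for the 8 member windows (circles, with exact 95% intervals of the counts) and for the whole lists (diamonds). Only for KD peaks with a motif does the diamond, at 67.4%, lie outside the interval of the circle, 70.2 to 96.4%.

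The share of sites with a motif was compared by the number of conditions that listed them on unmasked reads. The matrix was learned from peaks shared by the 3 conditions, and a site of several merged peaks can be wider than a single peak, so part of any such difference is built in. All 25 sites found in 2 or 3 conditions hold a motif (9 in 3, 16 in 2), with scores from 8.57 to 23.02 bits and a median of 16.11. Of the 31 sites found in 1 condition, 7 hold one (22.6%), and 2 of these are strict. Over the genome, 78.8% of the 32737 sites in 2 or 3 conditions and 23.5% of the 50311 in 1 condition hold a motif, so the split was also that of the whole lists. Of the 11 sites found in KD and OE and not in CT on unmasked reads, 3 (DMPK and SIX5 site 1, HTT site 3 and ATXN1 site 21) were in CT on repeat-masked reads. All 11 hold a motif and 9 a strict one, beside 83.4% and 65.0% over the genome. They lie in 5 windows: 5 in ATXN1, 3 in HTT and 1 each in DMPK and SIX5, ATXN2 and ATXN7. The 14 sites found in CT only lie in AFF2 (7), ATXN1 (5), FMR1 (1) and C9orf72 (1), and 3 of them hold a motif, beside 15.4% over the genome. Of the 10 sites in OE only, 1 holds a motif, HTT site 5, beside 17.9% over the genome. Of the 7 in KD only, 3 do, beside 40.3%. Counted over all 60 sites, 31 were in 1 condition, beside 53.9% of sites over the genome. Those in CT only, in OE only, in KD only, and in KD and OE without CT were 14, 10, 7 and 11. Genome-wide, these classes held 20.9%, 17.1%, 15.8% and 11.3% of sites.

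**Figure D4:**
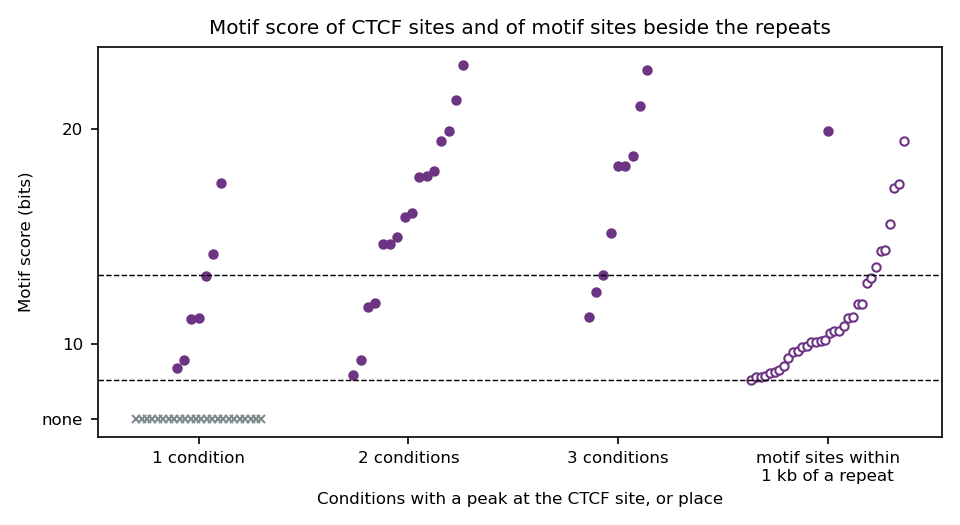
Score in bits of the best motif of each CTCF site (filled circles), by the number of conditions that listed the site, with crosses for sites without a motif (sites found on repeat-masked reads only are left out), and at right the score of every motif site within 1 kb of a repeat (open: under no CTCF peak; filled: under a peak). Dashed lines are the 2 score limits, 8.30 and 13.22 bits; the crosses stand in the column of 1 condition only, and 1 of the 35 motif sites at right is filled.

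A CTCF peak lay within 10 kb of the repeat at 3 of the 8 loci in CT (AFF2, DMPK and ATXN1) and at 4 in KD and in OE (FMR1, DMPK, ATXN1 and ATXN7). ATXN1 and DMPK were thus near a peak in every condition, AFF2 in CT alone, and FMR1 and ATXN7 in KD and OE. HTT, ATXN2 and C9orf72 had none in any condition, but the CT peak of C9orf72, at 10583 bp, lay just past the limit. Within 20 kb the count was 4 in each condition. As a background, tracts of at least 8 perfect units were located in protein-coding genes of hg38. Of 194 CAG or CTG tracts, 33.0% lay within 10 kb of a CT peak, 39.2% of a KD peak and 34.5% of an OE peak. Of 240 CGG or CCG tracts the shares were 32.1%, 42.1% and 40.0%. Start sites of the 20033 protein-coding genes lay within 10 kb of a peak in 32.5%, 41.1% and 39.7%, and those of the members in 3 of 8 windows in each condition. With 8 loci, these counts stood near the background. A peak on the tract itself was rarer. The DMPK tract was 1 of 2 CAG or CTG tracts under a CT peak, the other lying in MAGI1, a membrane scaffold gene, where KD and OE peaks overlapped it as well. In KD, 5 such tracts were under a peak and DMPK was not among them, since its KD peak began 19 bp away. Among the CGG or CCG tracts, 1 was under a KD peak and none under a CT or OE peak.

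Motif sites beside the repeats were mostly without a peak, as were those of the whole windows. Within 1 kb of the 8 repeats there are 35 motif sites, 8 of them strict, and 1 of the 35, the strict site of DMPK, was under a CTCF peak in any unmasked list. Over the whole windows, 40 of 1283 motif sites were, so the places beside the repeats stood near the rest. Of the strict sites that no CTCF peak covered, 4 are shown here. Those not shown lay at DMPK, 750 bp from the run (13.58 bits), and at ATXN1, 464 bp (15.59 bits) and 516 bp (14.37 bits) from it.

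FMR1, chrX:147912136-147912149, plus strand, 25 bp after the run, 14.33 bits: CCTCTCGGGGGCGG
DMPK and SIX5, chr19:45770982-45770995, plus strand, 717 bp from the run, 17.26 bits: GCAGCAGGTGGCGG
HTT, chr4:3075239-3075252, minus strand, 299 bp after the run, 19.45 bits: CCAGGAGGGGGCGG
ATXN7, chr3:63913009-63913022, minus strand, 293 bp after the run, 17.48 bits: CCTCGAGGGGGCGG

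The HTT site lay under an H3K4me3 peak in CT and KD and the ATXN7 site under one in KD, while the FMR1 and DMPK sites lay under none. The whole windows hold 184 strict motif sites, of which 9 lay under a CT peak, 18 under a KD peak and 19 under an OE peak, 21 under any of them. A motif match is a description of letters, and its lack of a peak says nothing of CTCF below the calling limit.

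H3K4me3, the mark of active promoters, was listed at 65 peaks in CT and 74 in KD over the 8 windows. Of the CT peaks, 56 were also in KD (86.2%, 75.3 to 93.5) and 9 were not, beside 14.1% without overlap over the whole list. Of the KD peaks, 18 were absent in CT (24.3%, 15.1 to 35.7), beside 19.3%. The densities were 3.46 peaks per 100 kb in CT and 3.94 in KD, beside 3.87 and 4.09 over all protein-coding genes. H3K4me3 peaks were thus more often shared than CTCF peaks, both in the windows and over the lists.

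At several repeats the run lay in a gap between H3K4me3 peaks, that is, under no peak with a peak within 1500 bp on both sides. At FMR1 the gap measured 472 bp in CT and 433 bp in KD, and the peak after it (chrX:147912179-147914274 in CT) began 68 bp from the run in CT and 49 bp in KD. At DMPK the gap was 207 bp in CT and 205 bp in KD, with a peak 16 bp and 19 bp from one end of the run. At ATXN2 it measured 1119 and 1144 bp, and at ATXN7 886 bp in CT and 544 bp in KD. At ATXN7 the peak after the run began 310 bp from it in CT and 93 bp in KD. At AFF2 the run lay in a gap in KD only (341 bp), because a KD peak of 196 bp (chrX:148500341-148500536), 95 bp before the run, had no CT counterpart.

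The other 3 loci differed. At HTT the peak over the start site ended within the CAG run, covering 16 of its 63 bases in CT and 30 in KD, and the next peak began 180 bp after the run in CT and 193 bp in KD. At C9orf72 a single peak of 2053 bp in CT and 2120 bp in KD covered the whole GGGGCC run. At ATXN1 no H3K4me3 peak lay within 2 kb of the run, and the nearest was 3509 bp before it in CT and 3804 bp in KD. In CT, 4 of the 8 runs lay in a gap and in KD 5.

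Over the same tracts as above, 8.25% of the CAG or CTG tracts lay in such a gap in CT and 8.25% in KD, beside 65.8% and 63.8% of the CGG or CCG tracts. Of start sites of protein-coding genes, 22.9% in CT and 21.6% in KD did. Of the members with CAG or CTG runs, DMPK, ATXN2 and ATXN7 lay in a gap in both conditions, 3 of 5. Among those with CGG or GCC runs, FMR1 did in both and AFF2 in KD. Each of the 5 CAG or CTG runs of the members had an H3K4me3 peak within 10 kb. Of the CAG or CTG tracts, 54.6% had one in CT and 55.7% in KD, so many of them could not lie in a gap. The part of this in the difference was not tested. Reads were mapped end-to-end, and how many of them fell within each run cannot be read from the lists.

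**Figure D5:**
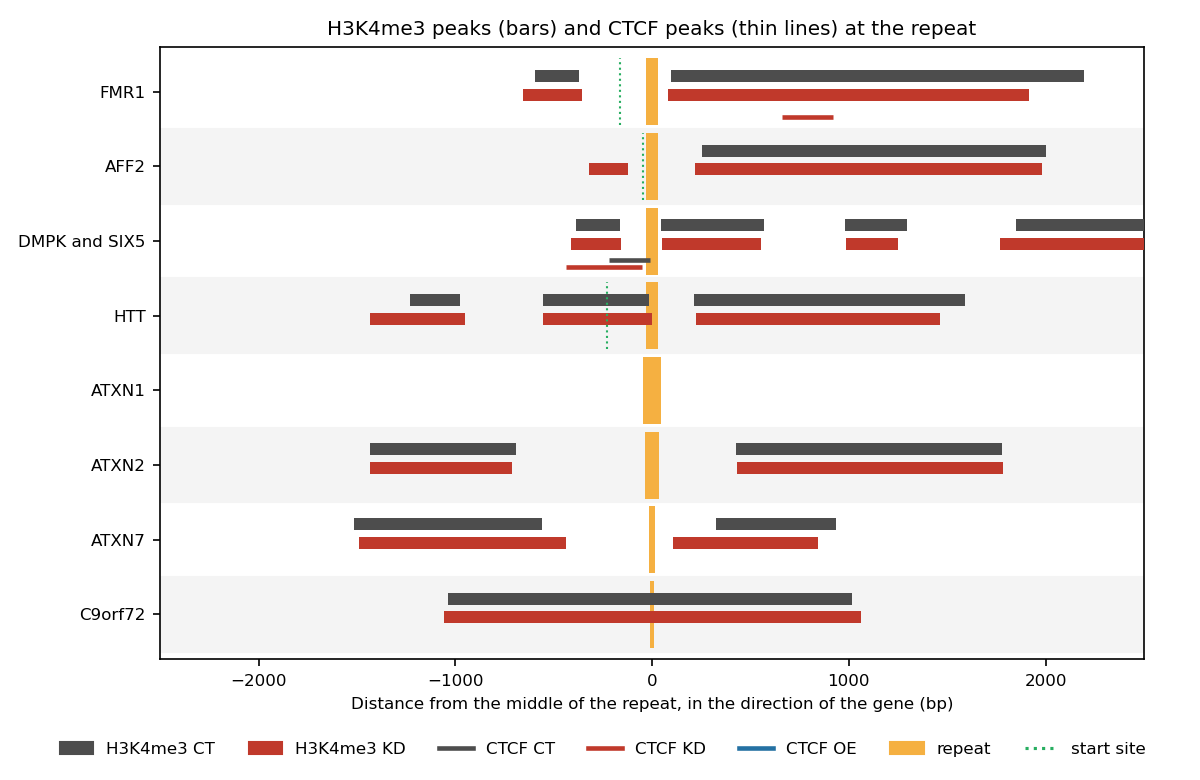
H3K4me3 peaks (bars: dark grey CT, red KD) and CTCF peaks (thin lines: dark grey CT, red KD, blue OE) by their distance from the middle of each repeat, in bp along the gene; the orange band is the repeat and the dotted line the start site. The band lies between bars at FMR1, DMPK and SIX5, ATXN2 and ATXN7 in both conditions and under a bar at C9orf72, and the CT thin line reaches the band at DMPK and SIX5.

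DMPK itself had no H3K4me3 within 2 kb of the start site used here, in either condition. Its nearest peak, in intron 2 and over CTCF site 2, lay 2174 bp away in CT and 2197 bp in KD. SIX5 differed from it, with a peak that ended at its start site in CT (chr19:45768939-45769251) and within 2 bp of it in KD (chr19:45768985-45769249).

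The antibodies that the labels name for H3K9me3 and H3K27me3 are exchanged in the methods, so the lists of these marks, called here by their titles, may belong to each other's mark. H3K9me3, a mark of heterochromatin, had 6 peaks in CT, in the windows of FMR1 (2), AFF2, ATXN1, ATXN2 and ATXN7, and 2 in KD, in AFF2 and ATXN2. The windows of 28.0% of protein-coding genes in CT and 13% in KD held one, and the density was 0.320 peaks per 100 kb in CT and 0.107 in KD, beside 0.372 and 0.148 over those genes, so the lower number in KD was also that of the whole lists. No CT and KD peaks overlapped, beside 68.5% of CT peaks and 45.3% of KD peaks without overlap over the whole lists. The CT peak nearest a repeat was that of ATXN7 (chr3:63914862-63915022), 2146 bp after the run. The 2 peaks of FMR1 lay 6283 and 25036 bp after the run and were 260 and 162 bp wide. H3K27me3, the mark of Polycomb repression, had 0 peaks in all windows in CT and in KD. The windows of 5.55% of protein-coding genes in CT and 3.60% in KD held one. The input library also had 0 peaks in the windows, so no CTCF or histone peak within them overlaps an input peak.

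A list of 38 other genes with expandable repeats was described by counts. Their windows had 90 CT, 101 KD and 99 OE peaks of CTCF. A peak lay within 10 kb of the start site of 14 of the 38 in CT, 15 in KD and 15 in OE. Over all protein-coding genes the shares were 32.5%, 41.1% and 39.7%. Such a peak was found in all 3 conditions for 10 genes, in none for 18 and in 1 or 2 for 10. The last group held 2 of 10 genes with CAG or CTG runs, 1 of 6 with CGG or GCC runs and 5 of 9 with polyalanine runs. It also held 2 of 13 with other repeats. The share of all protein-coding genes in that group was not computed.

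The conditions with a peak differed among those 10 genes. ATXN3, the gene of Machado-Joseph disease, had a peak 121 bp from its start site in KD and 100 bp in OE, and the nearest in CT was at 28825 bp. HOXA13, a limb patterning gene, had one at 3581 bp (KD) and 3534 bp (OE), and its nearest CT peak was at 35319 bp. NOTCH2NLC had one at 375 bp in KD only, but reads of this gene cannot be told apart well from those of its near-identical NOTCH2NL copies. ZIC2 had one in KD only, at 8144 bp. TNRC6A had one in OE only, at 1571 bp, and its nearest peaks were at 176694 bp in CT and 40205 bp in KD. FOXL2 had one at 5527 bp in OE, and its CT and KD peaks, at 10693 and 10657 bp, lay just past the 10 kb limit. TBP, the TATA-binding protein, had one in CT only, at 5071 bp, as did SOX3, at 8565 bp. CNBP had one in CT and OE, at 1849 and 3264 bp.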

How the data were processed

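ChIP-seq of HEK-293T gave 1 CTCF library each in CT, KD and OE, 1 library per histone mark in CT and KD, and 1 input. Per the methods, the authors mapped reads end-to-end with bowtie2 to hg38, unmasked or repeat-masked, and called peaks with MACS2. Tool versions are not given in the sources used here. Per the labels, the limits on p were 0.0025 (CTCF CT and KD), 0.005 (CTCF OE) and 0.001 (histone marks, input and repeat-masked reads), while the methods state 0.005 for unmasked reads. The deposited files hold peak positions in bp and no score, signal or coverage, so the precision given is that of the number of peaks. Starts were read as counted from 0 and are printed counted from 1. The smallest width among unmasked CTCF peaks is then 199 bp, so positions may be off by 1 bp. The deposited exclusive lists were not used.

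Of 405081 peaks, 7 reached past the end of 2 unplaced sequences and the rest lay inside the reference. Genes were those of GENCODE 44 with their canonical transcripts. The matrix was learned from 12493 peaks that overlap in the 3 repeat-masked lists, of which 90.6% held a site. Overlaps, distances and motif scores were computed with numpy 2.4.6 and intervals with scipy 1.17.1. The code was tested on simulated data. The 9 genes and the list of other repeat genes were chosen with earlier results of these data known. Per locus the nearest CTCF peak of each list was named. All peaks of FMR1, DMPK and SIX5 and C9orf72 were named, and in long windows those in all lists or in 1 condition. Sites in 2 conditions were named as well, after their values were seen. Other repeat genes were named only where a peak lay within 10 kb of the start site in 1 or 2 conditions. The values of 1 of them are not reported here. Alternatives changed the flank, the overlap, the lists, the motif limit and the distance. Leaving out AFF2 or ATXN1 was chosen after seeing the data.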

Additional observations from a re-analysis of the deposited data

How the results depend on the processing

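Each of the 11 summary values was recomputed under 77 alternatives in all. A share stayed within its exact 95% interval, and a count within 1.5 times its value, in 61 of them. These include every alternative on the flank and the overlap rule. The 61 also include leaving out peaks that overlap an input peak. That alternative could not change any value, because the windows hold no input peak. Keeping only the widest 20000 peaks of each list left 10 CT, 16 KD and 11 OE peaks. The share of CT peaks also in KD was then 20%, and the share also in OE was 0%. In the other direction, 87.5% of what KD kept lacked a CT overlap, and for OE this was 100%. Both lists of each pair were cut in this way. The shares over the whole cut lists were not computed, so these values have no background beside them. Why these shares moved was not tested. The loci with a peak within 10 kb of the repeat were then 1 in CT, 1 in KD and 2 in OE. On repeat-masked reads, 63.2% of CT peaks were also in OE, 35.3% of OE peaks were absent in CT, and OE peaks lay near 2 repeats. A motif was then in 78.9% of CT, 100% of KD and 100% of OE peaks. Over the whole repeat-masked lists it was in 58.4%, 89.1% and 86.6%. The cause of the changes on repeat-masked reads was not tested. With strict motifs, 35.7% of CT and 58.1% of KD peaks held one, beside 35.7% and 52.5% over the whole lists. Without AFF2, 76.2% of CT peaks held a motif.

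No paired analysis was possible because each condition has 1 library. The limits are the same throughout: peak lists give presence at a calling limit and no height, and how far a missing peak lies under that limit cannot be read from them. The 8 windows hold 28 to 31 unmasked CTCF peaks per list, which makes the intervals wide. Peaks of a window share 1 library and are not replicates.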
